A study of Homo sapiens with 15 samples.

Results

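The genes described here encode the coats that pull small pieces of the plasma membrane into the cell: the caveola proteins CAV1, CAV2, CAVIN1 and CAVIN2, the clathrin coat chains CLTA, CLTB and CLTC with the scission enzyme DNM2, and the flotillins FLOT1 and FLOT2. They were taken by name, through the gene numbers of the count table, and not by any measured value. All 10 were found among the 28395 genes of the table, and all 10 passed the filter on low counts, which left 16740 genes for testing. The cells were BEAS-2B, an immortalised line from human bronchial epithelium grown in serum-containing medium. Exposed cells received nanoplastics of polyethylene terephthalate (PET-NPLs) at 50 µg/mL, with fresh particles at each medium change, for 24 h, 15 weeks or 30 weeks, and untreated cells of the same age served as controls. There were 2 control and 2 exposed samples at 24 h, 2 and 2 at 15 weeks, and 3 and 4 at 30 weeks, 15 in all. The total RNA of each was sequenced after removal of ribosomal RNA.

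Caveolae are small flask-shaped pits built from caveolins, which sit in the membrane, and cavins, which coat them from the cytoplasm. Clathrin forms a lattice of heavy and light chains around deeper pits, and dynamin cuts the neck of the finished bud. Flotillins gather in cholesterol-rich membrane patches and take part in uptake that needs neither coat. These routes are the usual candidates when a cell takes up particles, and the comparisons below ask whether the RNA of their main parts differed between exposed cells and controls and over the weeks in culture.

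Libraries held 23143202 to 31459990 assigned reads, with a median of 28605451. The 24 h and 15-week samples are labelled as batch 1 and the 30-week samples as batch 2, so exposed cells and controls of one age were always in the same batch, whereas age beyond 15 weeks and batch cannot be told apart. The sources do not say that replicates came from separate cultures, and the p-values then measure the spread between these samples, which may be technical. Of 15 markers of bronchial epithelium, 9 stayed under 1 CPM (the read count scaled to library size by TMM) in every sample, among them EPCAM, CDH1, KRT5 and TP63. The summed level of all 15 was 315.8 to 1105 CPM, with group means of 149.9 to 616.3 for KRT8 and 194.5 to 352.5 for KRT18. Of 10 mesenchymal markers 1 stayed under 1 CPM, COL3A1, and the summed level of the 10 was 2723 to 5322 CPM. Exposed replicate 2 at 30 weeks stood apart from the other exposed samples of that age, and the 30-week changes are given with and without it. In RNA from whole cultures, fewer cells of a type and less RNA per cell cannot be told apart.

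Levels per kilobase of the canonical transcript, in CPM, ordered the genes as follows in the 24 h controls. CAV1, the protein that makes the caveola membrane coat, led with 502.9 ± 25.3 (SD, n = 2), followed by CAVIN1, the cavin without which caveolae do not form, with 252.7 ± 21.8. The clathrin heavy chain CLTC stood at 185.6 ± 4.90, the light chains CLTA at 157.7 ± 9.45 and CLTB at 135.8 ± 16.0, and CAV2, the partner of CAV1, at 87.8 ± 11.5. DNM2 at 33.8 ± 0.915, FLOT1 at 24.1 ± 0.171 and FLOT2 at 12.0 ± 0.342 were lower, and CAVIN2, a cavin that helps bend the caveola membrane, was last with 1.92 ± 0.368. No 2 neighbours in this order overlapped. With merged exons as the length, CLTB came before CLTA, and DNM2 came after both flotillins, so these positions depend on which transcripts the cells used.

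The order differed by 30 weeks. In the 30-week controls CLTA was first with 261.5 ± 29.2 CPM per kilobase (n = 3), overlapping with CAVIN1 at 214.7 ± 33.8, and CAV1 ranked 5 with 70.1 ± 7.84. From FLOT1 at 51.9 ± 3.59 down to CAV2 at 26.6 ± 4.86, each gene overlapped with the next. CAVIN2 was last in all 6 groups by this length, and by merged exons in 5 of them.

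Neither 24 h nor 15 weeks with the particles came with a call for any uptake gene. In edgeR's quasi-likelihood test with Benjamini-Hochberg adjustment over the 16740 genes, the adjusted p of each of the 10 genes was 1 at both ages, and 0 of them had an unadjusted p under 0.05. The background was the same, with 0% of all genes called at 24 h and 0% at 15 weeks, while 277 and 823 of them had an unadjusted p under 0.05. DESeq2 called 0 of all genes at 24 h and 17 at 15 weeks, limma-voom 0 at both, and neither called an uptake gene. At 15 weeks 2 other settings gave lower adjusted p, with CAV1 the lowest of the 10 genes. Its adjusted p was 0.267 by limma-voom with surrogate variables and 0.0997 with that age fitted alone. Neither setting called an uptake gene, and their calls among all genes are not given here. The paper reports differentially expressed genes at this age.

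At 24 h the 95% intervals of the log2 fold change (exposed over control) use a spread estimated from all 15 samples. Replicates differed less at 24 h (chi-square per gene 13.7 and 15.7) than at 30 weeks (16.3 to 134.9). The spread of the 24 h samples alone may thus be smaller than these intervals imply. CAV1 was at 1191 and 1279 CPM in controls and 1261 and 1148 in the exposed samples, which put the log2 fold change at -0.04 with an interval from -0.41 to 0.34. CAVIN2 was at 5.06 and 6.65 against 5.83 and 5.37, with an interval from -0.50 to 0.38. CLTC, which forms the legs of the clathrin lattice, was at 1582 and 1524 against 1549 and 1518, with an interval from -0.39 to 0.36. The samples of both groups overlapped for these 3 genes. Only for FLOT1, a raft scaffold, were both exposed values, 49.9 and 47.2, outside the controls at 44.7 and 45.1, and such a gap was seen in 26.0% of all genes tested. Its log2 fold change was 0.11 (SE 0.128).

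At 15 weeks both exposed values lay outside the controls for 5 of the 10 genes, against 45.3% of all genes tested. CAV1 was at 304.6 and 287.9 CPM in controls and 349.3 and 352.0 in exposed cells (log2 fold change 0.24, SE 0.177, interval -0.13 to 0.62). CLTC was at 1465 and 1528 against 1601 and 1675, a log2 fold change of 0.13 (SE 0.176). CAVIN2 lay lower, at 8.80 to 9.09 CPM in exposed cells against 9.51 to 10.8 in controls. CLTB, a light chain that regulates the lattice, and FLOT1 also lay lower, with log2 fold changes of -0.17 and -0.13. None of these gaps passed the test, and the median absolute log2 fold change was 0.126 over the 10 genes and 0.157 over all genes.

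After 30 weeks of exposure, CAVIN2 and CAV2 were lower than in the controls of the same age and the other 8 uptake genes did not pass the test. Of all genes tested 23.7% were called at this age in either direction, and 2 of 10 is no more than that share. Both of these calls were lower, against 11.7% of all genes called lower. The 10 genes were close to their controls in the main: their median log2 fold change was -0.06 against 0.008 for all genes, and the median absolute value 0.147 against 0.298.

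CAVIN2 had the largest difference of the 10 genes. Its level was 50.1, 55.5 and 42.0 CPM in the 3 controls and 11.1, 13.5, 10.6 and 9.22 in the 4 exposed samples, from raw counts of 1164 to 1538 and 262 to 385. The groups did not overlap, which held for 1 of the 10 genes and for 27.3% of all genes. The fall was 4.43-fold, a log2 fold change of -2.15 (SE 0.146, 95% interval -2.46 to -1.84, edgeR adjusted p = 2.96e-08). Without exposed replicate 2 it was -2.26, and in all 18 alternatives, each left-out library included, it lay between -2.26 and -1.94 and stayed past the threshold. The exposed cells of 30 weeks were near the level of both 15-week groups, and the 30-week controls were the group that stood apart.

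Other measurements moved with CAVIN2 at 30 weeks. CAV3, the caveolin of skeletal muscle, was at 13.2 ± 1.33 CPM in the 30-week controls and 0.468 ± 0.194 in exposed cells (log2 fold change -4.81, SE 0.310, edgeR adjusted p = 1.78e-08). The CAV3 control means were 0.052 CPM at 24 h and 0.217 at 15 weeks. Of 10 skeletal muscle markers, 6 were tested and 4 fell. The summed level of all 10 was 174.8 to 198.3 CPM without and 44.8 to 56.6 CPM with exposure. It was 94.2 to 107.6 CPM in the 15-week controls, 106.6 to 113 in exposed cells of that age, and 120.1 to 152.2 at 24 h. At both earlier ages this sum was above the 30-week exposed range. Of the 6 tested markers, 4 rose and 1 fell in controls from 15 to 30 weeks (list median log2 fold change 5.94). In exposed cells 0 rose and 2 fell over that time (median 1.18). At 30 weeks the myogenic regulator MYOD1 went from 85.3 to 0.462 CPM with exposure and the acetylcholine receptor subunit CHRNA1 from 47.7 to 0.131. ACTA1, CKM, MYH8 and ACTN2 stayed under 1 CPM in every sample. The summed epithelial markers at 30 weeks were 315.8 to 410.5 CPM without and 887.9 to 1105 CPM with exposure. Nearly all of this sum was the keratins KRT8 (means of 149.9 and 616.3 CPM) and KRT18 (194.5 and 338.2). Of 8 epithelial markers tested, 4 rose and none fell. KRT19 rose from a mean of 0.767 to 2.88 CPM (log2 fold change 1.93, edgeR adjusted p = 0.000664), and the CLDN1 means were 2.31 and 9.66. EPCAM, CDH1, CLDN7 and KRT17 were not called, with means under 1 CPM at this age. Of 9 mesenchymal markers tested, 3 rose and 2 fell (list median -0.16). The summed mesenchymal markers at 30 weeks were 3502 to 3927 CPM without and 3564 to 4342 CPM with exposure. The FN1 means were 114.7 and 545.9 CPM, and the COL1A1 means 55.29 and 7.355. The share of reads in 6 abundant small noncoding RNAs was 22.30% to 31.03% against 17.04% to 21.46%. The part of these differences in the CAVIN2 result was not tested. CAVIN2 is also known from blood vessels and platelets, and 4 of 5 endothelial markers (PECAM1, CDH5, KDR and TEK) were under 1 CPM in every sample. The sum of all 5 was 0.559 to 0.903 CPM in the 30-week controls and 2.15 to 3.01 in exposed cells, and the 3 endothelial markers that were tested rose. Of 6 blood cell markers 4 were under 1 CPM throughout, with CD3E at 0. The blood marker sum was 25.55 to 32.17 CPM in the 30-week controls, 16.97 to 21.13 in exposed cells and 8.97 to 13.8 at 15 weeks. Of its 2 tested members CD68 fell at 30 weeks (log2 fold change -0.95) and CD14 rose (1.72). The part of these markers was not tested either.

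CAV2 showed a small difference that depended on single libraries. It was at 87.7, 85.6 and 61.9 CPM in the 30-week controls and at 51.1, 67.1, 60.8 and 51.0 in exposed cells, so the lowest control lay inside the exposed range. The log2 fold change was -0.45 (SE 0.143, interval -0.75 to -0.14, edgeR adjusted p = 0.0325). The call ended without control replicate 1 (-0.35, adjusted p = 0.16), control replicate 2 (-0.38, 0.11), exposed replicate 1 (-0.39, 0.0885) or exposed replicate 4 (-0.39, 0.0923), and in 7 of 18 alternatives in all. Without exposed replicate 2 CAV2 stayed called at -0.53 (adjusted p = 0.00442). Scaling by library size alone also ended the CAV2 call and instead put CAVIN1 at 0.39 (adjusted p = 0.0212) and CLTC at 0.45 (adjusted p = 0.0197). That scaling moved the median of all genes by 0.22 on the log2 scale, and relative to this shift CAV2 was at -0.45, CAVIN1 at 0.17 and CLTC at 0.23.

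CAV1, beside which CAV2 lies in the genome, did not pass the test. Its level was 184.9, 181.5 and 150.0 CPM in controls and 144.6, 191.4, 143.3 and 131.4 in exposed cells, with overlapping groups and a log2 fold change of -0.17 (SE 0.135, interval -0.46 to 0.11, edgeR adjusted p = 0.392). The highest exposed value was that of replicate 2, and without it the change was -0.30 with an adjusted p of 0.0397. CAVIN1 was at 895.2, 655.9 and 747.9 CPM against 894.0, 779.2, 902.7 and 838.3, a log2 fold change of 0.16 (interval -0.11 to 0.42), and 0.20 without exposed replicate 2. The per-length ratio of CAVIN1 to CAVIN2 was 10.1 to 15.3 in the 30-week controls and 49.4 to 77.7 in the exposed cells of that age.

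**Figure D1:**
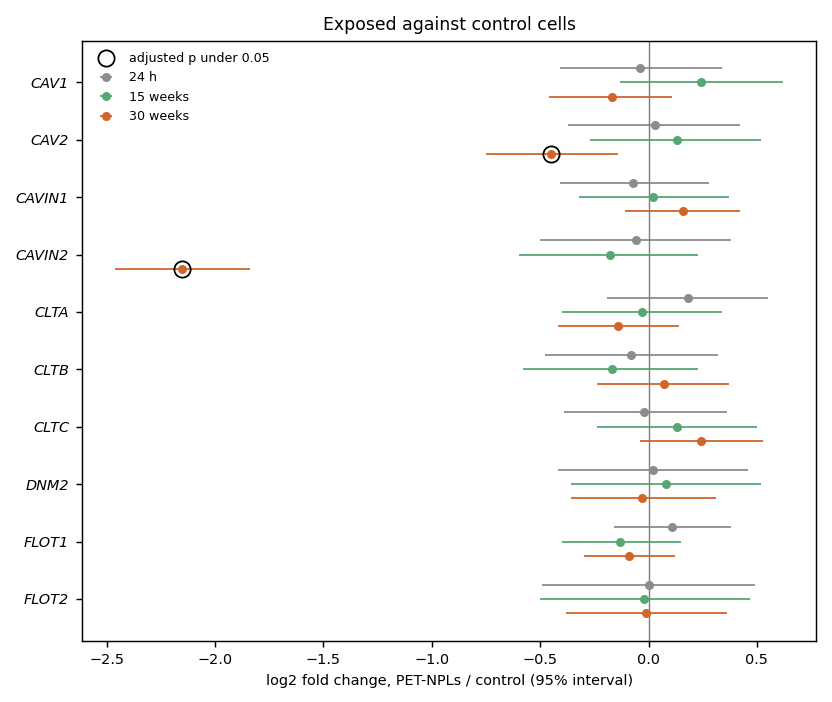
Log2 fold change of exposed over control cells for each of the 10 genes at 24 h, 15 weeks and 30 weeks, with 95% intervals from edgeR as bars, a line at 0 and rings around called genes. All intervals at 24 h and 15 weeks cross 0, and at 30 weeks only CAVIN2 (-2.15) and CAV2 (-0.45) lie below it.

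The clathrin coat was close to its controls after 30 weeks of exposure. CLTC was at 924.6, 968.4 and 820.6 CPM in controls and at 1054, 1320, 889.3 and 1019 in exposed cells (log2 fold change 0.24, SE 0.135, interval -0.04 to 0.53, edgeR adjusted p = 0.213). The light chains that sit on it were at -0.14 (CLTA, interval -0.42 to 0.14) and 0.07 (CLTB, interval -0.24 to 0.37). DNM2, the GTPase that cuts the necks of clathrin pits and caveolae, was at -0.03 (interval -0.36 to 0.31). Exposed replicate 2 held the highest value of CLTA, CLTB and CLTC and the lowest of DNM2 in its group. Without it CLTC was at 0.13, CLTA at -0.24, CLTB at -0.01 and DNM2 at 0.11, none of them called. The groups overlapped for all 4 genes.

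The flotillins also stayed close. FLOT1 was at 91.1, 95.3 and 104.2 CPM in controls and at 94.5, 84.0, 96.6 and 88.7 in exposed cells. Its log2 fold change of -0.09 had the narrowest interval of the 10 genes at this age, -0.30 to 0.12. FLOT2, its partner in the same scaffold, was at 82.2, 72.5 and 100.4 against 97.1, 54.0, 86.3 and 100.9, a log2 fold change of -0.01 (interval -0.38 to 0.36). The groups overlapped for both genes, and exposed replicate 2 gave the lowest value of each, without which FLOT1 was at -0.06 and FLOT2 at 0.16, neither called.

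The exposure change differed between 30 and 15 weeks for CAVIN2 alone among these genes. The difference of the 2 log2 fold changes was -1.97 (SE 0.245, interval -2.49 to -1.45, edgeR adjusted p = 0.000138), and it stayed called in 22 of 22 alternatives. Of all genes 2.08% were called lower in this test. For CAV2 the difference was -0.57 (adjusted p = 0.238) and for CAV1 -0.42 (adjusted p = 0.411), and both were called only with limma-voom and surrogate variables. The 2 ages are labelled as different batches, and each change was taken against controls of its own batch.

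**Figure D2:**
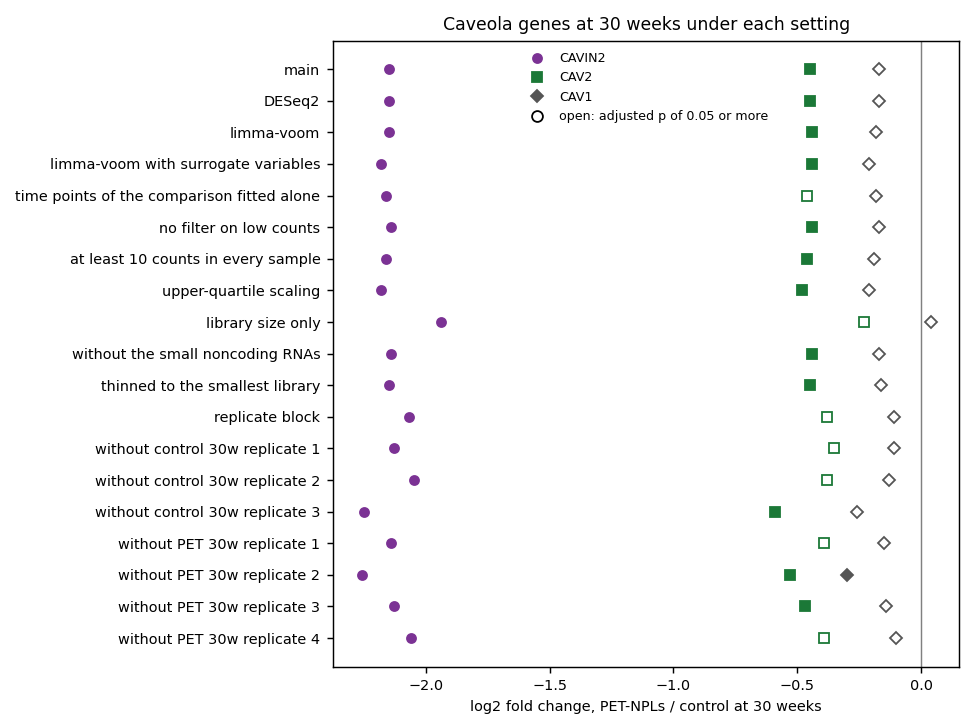
Log2 fold change of CAV1, CAV2 and CAVIN2 at 30 weeks (exposed over control, horizontal axis) as reported, in the top line, and in each of 18 alternatives below it, with filled points where the adjusted p was under 0.05 and empty points elsewhere. CAVIN2 stays between -2.26 and -1.94 and is called throughout, while CAV2 lies between -0.59 and -0.23 and is called in 11 of 18.

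The comparisons over the weeks in culture use the same samples as those above, and they called more of the uptake genes and more of all genes than exposure did (24.9% to 50.3% of all genes against at most 23.7%). From 24 h to 15 weeks CAV1 and CAV2 fell in controls and in exposed cells alike. Control CAV1 went from 1191 and 1279 CPM to 304.6 and 287.9, a 4.17-fold fall (log2 fold change -2.06, SE 0.184, edgeR adjusted p = 7.39e-07). In exposed cells it went from 1261 and 1148 to 349.3 and 352.0, a 3.44-fold fall (-1.78, SE 0.182, adjusted p = 2.80e-06). The groups of the 2 ages were far apart on both arms.

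CAV2 fell on both arms too. In controls it went from 235.3 and 283.1 CPM to 103.5 and 100.6, a 2.54-fold fall (log2 fold change -1.34, SE 0.190, edgeR adjusted p = 7.90e-05). In exposed cells it went from 276.4 and 251.2 to 120.4 and 102.3, a 2.37-fold fall (-1.24, SE 0.189, adjusted p = 0.000147). CAVIN1, which coats the same pits, was at 847.3 and 957.1 in the 24 h controls and at 865.2 and 952.1 in the 15-week controls, a log2 fold change of 0.01 (interval -0.34 to 0.36). The per-length ratio of CAV1 to CAVIN1 was 1.94 to 2.04 in the 24 h controls and 0.440 to 0.512 in the 15-week controls, and that of CAV1 to CAV2 was 5.43 to 6.09 and then 3.44 to 3.54.

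CAVIN2 and FLOT2 were called higher at 15 weeks than at 24 h on both arms, and CLTB lower on the exposed arm. CAVIN2 was 1.73-fold higher in controls (log2 fold change 0.79, SE 0.201, edgeR adjusted p = 0.00827) and 1.60-fold higher in exposed cells (0.68, adjusted p = 0.0220). FLOT2 was 1.69-fold higher in controls (0.76, adjusted p = 0.0240) and 1.67-fold in exposed cells (0.74, adjusted p = 0.0267). CLTB was at -0.58 in exposed cells (adjusted p = 0.0334) and at -0.49 in controls (adjusted p = 0.0750). These 3 genes rest on all libraries of their 2-sample groups, since only CAV1 and CAV2 stayed called on the exposed arm without any 1 of its 4 libraries. In controls the FLOT2 call ended without any 1 of the 4, and the CAVIN2 call ended without the 24 h control replicate 1 (0.60, adjusted p = 0.118) or the 15-week control replicate 2 (0.70, adjusted p = 0.0749). Of the 10 genes 2 rose and 2 fell in controls, where 12.7% of all genes rose and 12.2% fell, and 2 rose and 3 fell in exposed cells, against 13.5% and 12.5%.

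Between 15 and 30 weeks, where age and batch cannot be told apart, 5 of the 10 genes rose and 2 fell in controls, against 25.6% and 24.6% of all genes, and 4 rose and 3 fell in exposed cells, against 23.3% and 22.7%. The small RNA share was 9.75% to 11.4% at 15 weeks and 17.04% to 31.03% at 30 weeks, and its part in these differences was not tested. CAV1 fell by 0.78 on the log2 scale in controls (SE 0.160, edgeR adjusted p = 0.000769) and fell by 1.20 in exposed cells (adjusted p = 2.06e-05). CAV2 fell by 0.95 in exposed cells (adjusted p = 0.000190) and stood at -0.38 in controls (adjusted p = 0.0725). CAVIN2 rose 4.85-fold in controls (log2 fold change 2.28, SE 0.189, adjusted p = 2.95e-07) and stood at 0.31 in exposed cells (adjusted p = 0.150).

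The clathrin heavy and light chains went in opposite directions between 15 and 30 weeks. In controls CLTC fell by 0.73 on the log2 scale (SE 0.159, edgeR adjusted p = 0.00134) while CLTA rose by 0.80 (adjusted p = 0.000709) and CLTB by 0.68 (adjusted p = 0.00439). In exposed cells CLTC fell by 0.61 (adjusted p = 0.00343), CLTA rose by 0.69 (adjusted p = 0.00189) and CLTB by 0.92 (adjusted p = 0.000470). The per-length ratio of CLTC to CLTA was 1.11 to 1.29 in the 15-week controls, 0.391 to 0.430 in the 30-week controls and 0.451 to 0.585 in the exposed cells of 30 weeks. In the control arm the CLTB call ended without the 15-week replicate 2 and with scaling by library size alone (0.28, adjusted p = 0.12), which moved the median of all genes by -0.37 and left CLTB at 0.65 relative to it.

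Both flotillins rose from 15 to 30 weeks. FLOT1 went from 40.3 and 43.0 CPM to 91.1, 95.3 and 104.2 in controls, 2.33-fold (log2 fold change 1.22, edgeR adjusted p = 1.65e-06), and rose by 1.25 in exposed cells (adjusted p = 2.44e-06). FLOT2 rose by 0.65 in controls (adjusted p = 0.0173) and by 0.66 in exposed cells (adjusted p = 0.0143). The FLOT2 call ended in 4 of 16 alternatives in controls and in 4 of 17 in exposed cells. Scaling by library size alone was among these on both arms, with adjusted p of 0.361 and 0.0879. Under that scaling FLOT2 stood at 0.64 and 0.66 relative to the median of all genes. In the model of all 15 samples with TMM scaling, DNM2 and CAVIN1 passed the edgeR test in none of the 8 comparisons. However, CAVIN1 was called lower in controls from 15 to 30 weeks in 3 of 16 alternatives. Among them were limma-voom with surrogate variables (-0.29, adjusted p = 0.0368) and library size only (-0.65, adjusted p = 0.000872). CAV2 was also called lower there in 3 of 16 alternatives, with adjusted p of 0.00372 and 0.000504 under these settings.

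**Figure D3:**
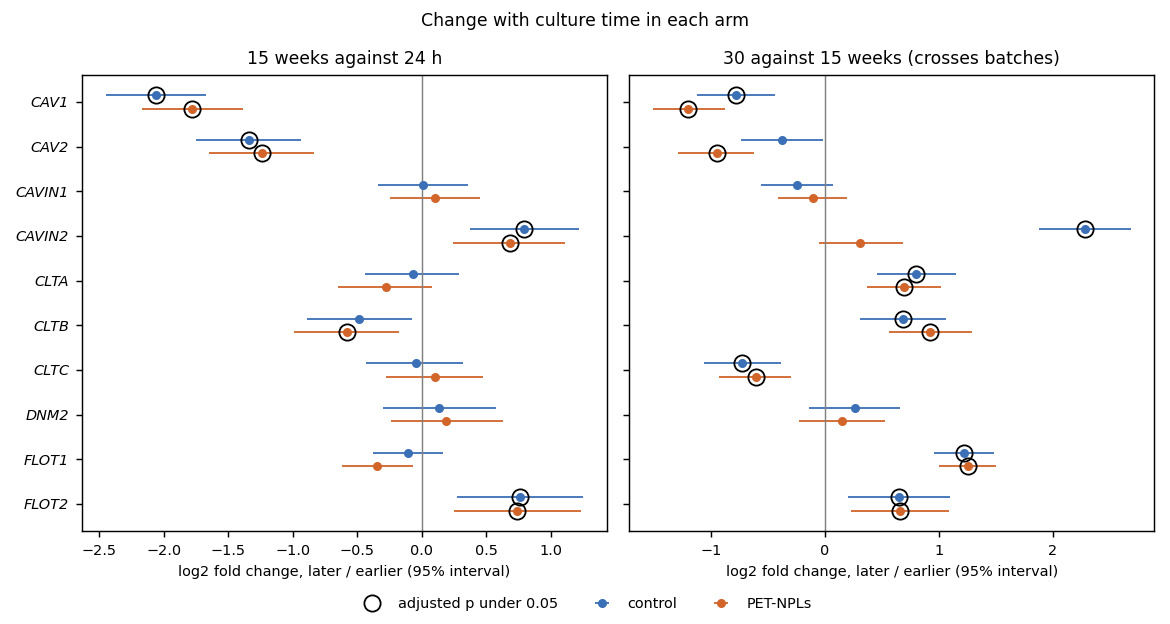
Log2 fold change over time for each of the 10 genes, 15 weeks over 24 h and 30 over 15 weeks, in controls and in exposed cells, with 95% intervals from edgeR as bars and rings around called genes. CAV1 lies at -2.06 and -1.78 in the first step on the 2 arms, and CAVIN2 at 2.28 in controls and 0.31 in exposed cells in the second.

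The caveolin genes lie next to each other and the cavin gene far from them, and their upstream sequences differ. CAV1 spans chr7:116525009-116561185 and CAV2 chr7:116499738-116508541 (GRCh38.p14), both on the forward strand, with starts 25271 bases apart, while CAVIN2 spans chr2:191834310-191847088 on the reverse strand. The 250 bases before the most upstream RefSeq start are shown for these 3 genes because they carried the largest changes over time and with exposure. Sequences run 5′ to 3′ on the strand of the gene, from chr7:116524759-116525008 for CAV1, chr7:116499488-116499737 for CAV2 and chr2:191847089-191847338 for CAVIN2, and capitals mark the GC box letters GGGCGG on either strand.
CAV1: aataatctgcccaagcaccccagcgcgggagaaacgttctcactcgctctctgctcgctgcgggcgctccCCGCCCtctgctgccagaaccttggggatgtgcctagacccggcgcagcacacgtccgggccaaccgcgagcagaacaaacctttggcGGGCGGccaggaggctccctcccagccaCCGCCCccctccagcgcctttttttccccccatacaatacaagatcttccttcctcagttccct
CAV2: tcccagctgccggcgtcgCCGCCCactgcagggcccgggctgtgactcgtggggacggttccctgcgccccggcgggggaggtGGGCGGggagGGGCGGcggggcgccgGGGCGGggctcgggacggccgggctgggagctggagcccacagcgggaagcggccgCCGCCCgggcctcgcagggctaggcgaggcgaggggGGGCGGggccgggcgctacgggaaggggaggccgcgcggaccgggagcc
CAVIN2: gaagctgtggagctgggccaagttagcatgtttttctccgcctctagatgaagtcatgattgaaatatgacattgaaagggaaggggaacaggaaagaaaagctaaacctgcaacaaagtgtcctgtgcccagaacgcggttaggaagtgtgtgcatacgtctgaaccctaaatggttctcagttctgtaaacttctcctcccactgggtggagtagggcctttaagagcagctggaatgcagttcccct

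The CAV1 window holds 3 GC boxes and 63.6% G and C, the CAV2 window 6 boxes and 83.2%, and the CAVIN2 window none and 48.0%, where the median of 35116 RefSeq promoter windows of this length is 58.0% and 42.6% of them hold a GC box. The same windows were searched on both strands for the letters CCAAT, which 32.0% of all windows hold, for TATAAA, found in 10.7%, and for the AP-1 site TGANTCA, found in 6.57%. None of these was found in the 3 windows shown. Among the 9 uptake genes with an entry, the GC box was found in all but CAVIN2, CCAAT in CLTA and DNM2, the AP-1 letters in FLOT2 alone and the TATA letters in none. A match is a run of letters and says nothing about a factor bound there.

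Genes around the caveolin locus were mixed at 30 weeks, when 12.0% of all genes were called higher and 11.7% lower. Of 11 tested genes that begin within 1 Mb of CAV1, 3 rose in exposed cells: the receptor tyrosine kinase gene MET (log2 fold change 1.52, SE 0.143, edgeR adjusted p = 1.11e-06), the focal adhesion gene TES (1.08, adjusted p = 1.98e-05) and ST7 (0.56, adjusted p = 0.00350). CAV2 was called lower and the other 7 were not called.

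Around CAVIN1, the clathrin genes, DNM2 and the flotillins the calls were mixed and are given by name, those that rose first. Of 61 genes near CAVIN1, KRT15, KRT19, ACLY, STAT5B, STAT5A, CNTNAP1 and WNK4 rose and DHX58, NAGLU, PLEKHH3, VPS25, COA3, AOC2 and RND2 fell. Of 27 near CLTA, CA9, HRCT1 and EBLN3P rose and RMRP, HINT2 and GLIPR2 fell. Of 23 near CLTB, SFXN1 and UNC5A rose and ARL10, FGFR4 and PRELID1 fell, and of 26 near CLTC none rose and PPM1E, MIR301A and WFDC21P fell. Of 58 near DNM2, ICAM1, PDE4A, RAB3D and CCDC159 rose and EIF3G, S1PR2, FDX2, SLC44A2, TMED1 and YIPF2 fell. Of 60 near FLOT1, HLA-L and MICB rose and GNL1, ATAT1, PPP1R18, DDR1, VARS2, PSORS1C1, NFKBIL1, GPANK1, CSNK2B and DDAH2 fell, and of 47 near FLOT2, TMEM97, TNFAIP1, VTN, SARM1, SLC46A1, FOXN1 and TRAF4 rose and ALDOC and CORO6 fell.

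**Figure D4:**
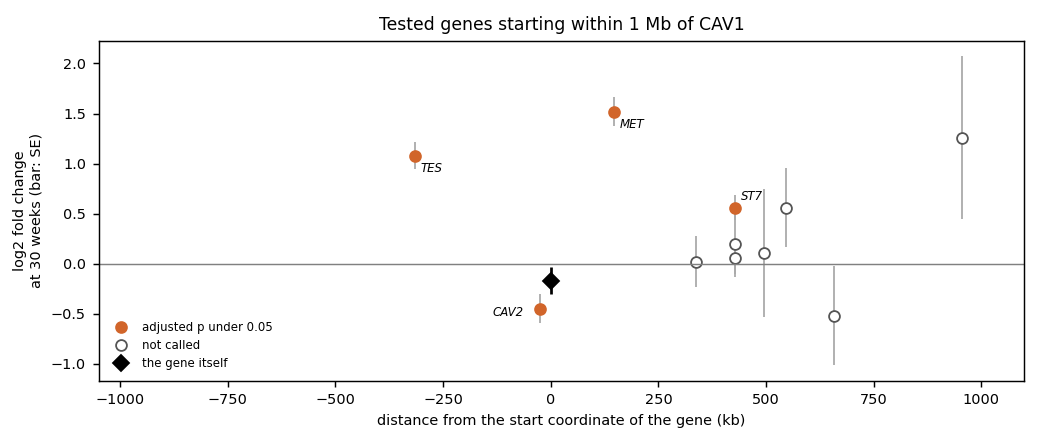
Log2 fold change at 30 weeks of the tested genes that begin within 1 Mb of CAV1, against the distance between gene starts in kilobases, with SE bars and with called genes filled and named. MET at 1.52 and TES at 1.08 lie above 0 on either side of CAV1 (diamond), and CAV2 at -0.45 lies below 0 next to it.

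Other genes of the uptake routes were read from lists of 79 genes, of which 75 were tested. None was called at 24 h or 15 weeks, and at 30 weeks 17 rose and 13 fell in exposed cells, where 23.7% of all genes were called. Of 8 other caveola genes none rose and 2 fell, with a list median of -0.21: CAV3, given above, and the membrane-remodelling ATPase EHD4 (-0.39, edgeR adjusted p = 0.0281). Of 20 clathrin adaptors and pit-initiation genes 4 rose and 2 fell (median 0.05). EPN2, an epsin that bends membrane, went from 11.7 ± 0.971 to 26.5 ± 5.82 CPM (log2 fold change 1.18, adjusted p = 5.57e-05), and the scaffold gene ITSN1 rose by 0.81 (adjusted p = 0.000407). CLTCL1, the second clathrin heavy chain, fell by 0.70 (adjusted p = 0.00491) and AP2S1, the small subunit of the main adaptor, fell by 0.48 (adjusted p = 0.0349).

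Scission and uncoating genes held the most calls, 6 higher and 4 lower of 13 tested (median 0.36). DNAJC6, an auxilin that strips clathrin from vesicles, went from 12.4 ± 2.83 to 32.1 ± 3.27 CPM (log2 fold change 1.37, edgeR adjusted p = 8.15e-06), and SYNJ1, a lipid phosphatase of uncoating, rose by 0.83 (adjusted p = 0.000630). SH3GL1, an endophilin, fell by 1.00 (adjusted p = 5.03e-05) and SNX18, a sorting nexin, fell by 0.99 (adjusted p = 2.62e-05). Of 13 genes of coat-free uptake and macropinocytosis 3 rose and 4 fell (median -0.02). CD44, the hyaluronan receptor, rose by 0.73 (adjusted p = 0.000797) and SWAP70 by 0.45 (adjusted p = 0.0141), while CTBP1 fell by 0.60 (adjusted p = 0.00116) and the syndecan SDC1 fell by 0.59 (adjusted p = 0.0140).

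Of 8 tested uptake receptors 2 rose and 1 fell (median 0.22). SCARB1, the high-density lipoprotein receptor, went from 28.4 ± 4.99 to 69.5 ± 17.4 CPM (log2 fold change 1.29, edgeR adjusted p = 6.17e-05), LRP8 rose by 0.34 (adjusted p = 0.0457) and SCARB2, a receptor of lysosomal membranes, fell by 0.51 (adjusted p = 0.00630). Of 13 early endosome genes 2 rose and none fell (median 0.09): EEA1, which tethers early endosomes, by 0.74 (adjusted p = 0.00265) and RAB5A, the small GTPase that recruits it, by 0.34 (adjusted p = 0.0285). Between the 2 ages the exposure change differed for 4 genes upward and 3 downward of the 75, against 2.66% and 2.08% of all genes.

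The genes whose levels over the 15 samples lay closest to those of 3 members, after centring each on its own mean, were found by the mean absolute difference in log2 CPM. For CAV1 they included FRMD6 (0.105) and DOCK4 (0.143), against a median of 1.11 over all genes. For CLTC they were CPD (0.0531), ECD (0.0624) and PRKD3 (0.0688), against 0.510. For FLOT1 they were CIB1 (0.103), SLC35B2 (0.109) and PEDS1 (0.110), against 0.661. All of these genes were read in the same 15 samples, with the same ages and batches.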

How the data were processed

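Total RNA of 15 BEAS-2B samples was sequenced from stranded, ribosomal RNA-depleted libraries. According to the study's methods and the labels, the authors trimmed the reads with Rfastp, aligned them to GRCh38 (hg38) with Rsubread and counted them per Entrez gene with featureCounts. The strand setting and the treatment of reads with several matches are not given in the sources used here. The deposited values are raw read counts per gene, with 28395 genes in 15 columns, all of which were used (0 columns were left out).

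Samples were grouped by their titles into 3 ages with and without PET-NPLs. Counts were analysed with edgeR 4.0.16 in R 4.3.3: filterByExpr on the 6 groups kept 16740 genes, libraries were scaled by TMM, 1 quasi-likelihood model was fitted to all 15 samples with a mean per group, and p-values were adjusted by Benjamini-Hochberg over the 16740 genes and called under 0.05. A standard error is the fold change divided by the root of F, and a 95% interval uses the moderated degrees of freedom. CPM values are TMM-scaled, and log2 CPM uses a prior count of 2. Lengths are from GENCODE, and promoter windows and gene positions from RefSeq GRCh38.p14, where 9 of the 10 genes had a window. The study's own test, limma-voom with surrogate variables (limma 3.58.1, sva 3.50.0), and DESeq2 1.42.0 were alternatives, beside other filters, scalings, thinning, the replicate block and each sample left out. The script was tested on simulated data.

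The genes and lists were chosen with earlier results of these data known. The text names the 10 genes in every comparison, up to 2 called genes in each direction at 30 weeks from each of 6 uptake lists, called genes within 1 Mb of the members, and of the 3 nearest profiles for CAV1, CLTC and FLOT1. Some genes under these last 2 rules are not reported here. Muscle and marker genes named beside CAVIN2 were chosen after their values were seen. Marker lists covered bronchial epithelium, mesenchymal cells, blood cells, endothelium and skeletal muscle.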

Additional observations from a re-analysis of the deposited data

Results flagged for a closer look

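CAVIN2 was flagged because its exposure change at 30 weeks differed from that at 15 weeks by a test of the difference itself. The change was -0.18 on the log2 scale at 15 weeks (2 control and 2 exposed samples) and -2.15 at 30 weeks (3 and 4), a difference of -1.97 (SE 0.245, edgeR adjusted p = 0.000138 over 16740 genes). All 4 exposed samples of 30 weeks were below all 3 controls. In the leave-one-out and other alternatives the difference lay between -2.07 and -1.76 and was called in 22 of 22. Of 6 skeletal muscle markers tested, 4 fell with exposure at 30 weeks. In controls 4 of the 6 rose and 1 fell from 15 to 30 weeks. The marker sum was above the 30-week exposed range at both earlier ages. The part of these markers in the CAVIN2 change was not tested. No sample of a group of 4 stood out from the rest in any of the 10 genes by Dixon's criterion, which could be applied only to the exposed cells of 30 weeks (highest ratio 0.781, CAV1).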

How the results depend on the processing

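The CAVIN2 changes at 30 weeks and between 30 and 15 weeks kept their direction and call in every alternative run. Of the log2 fold changes of the 10 genes under all alternatives, 1207 kept direction and side of the threshold, 36 lost a call, 19 gained one and 68 changed sign. With 2 samples a group, leaving out 1 sample assumes that the lone sample varies like the other groups. With these sample numbers a change can be called only where it is larger than about the distance from the estimate to either end of its interval. Where no cause is given, the cause was not tested.

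The number of uptake genes called at 30 weeks was 1 (CAVIN2) in place of 2 when that age was fitted alone, at an adjusted p under 0.01, and with the replicate block, and 1 to 3 with single samples left out: 1 without control replicate 1 or 2 or exposed replicate 1 or 4, and 3 without exposed replicate 2. Between ages the exposure change was called for 3 genes (CAV1, CAV2 and CAVIN2) in place of 1 with limma-voom and surrogate variables. In exposed cells 2 genes (CAV1 and CAV2) in place of 5 were called from 24 h to 15 weeks at an adjusted p under 0.01 and with any 1 sample left out, and in controls 2 to 3 in place of 4 with 1 left out (2 without the 24 h replicate 1 or the 15-week replicate 2). Other alternatives gave more calls over this period: with surrogate variables, and with the ages fitted alone, 7 in exposed cells (CLTA and FLOT1 besides) and 5 in controls (CLTB besides, adjusted p = 0.000629 and 0.000868). From 15 to 30 weeks surrogate variables called 9 in controls (CAV2 and CAVIN1 besides) in place of 7, and leaving out 1 sample gave 5 to 9 in controls and 6 to 7 in exposed cells.

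Samples were not paired by replicate number in the reported model. Same-numbered control and exposed samples correlated in their deviations by -0.06 at 24 h, 0.029 at 15 weeks, and -0.118, 0.303 and 0.098 at 30 weeks. With 2 samples a group, differently numbered pairs give the same value with the opposite sign, so the earlier ages say little about pairing. Differently numbered pairs at 30 weeks ran from -0.481 to 0.359. The replicate block left CAV2 at -0.38 with an adjusted p of 0.107, called CAVIN2 higher in exposed cells from 15 to 30 weeks and put FLOT2 at -0.01 at 24 h and -0.09 for the difference between ages, and DNM2 at -0.02 from 15 to 30 weeks in exposed cells.

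The other sign changes were all of log2 fold changes that the report does not call. FLOT2 at 24 h was 0 with limma-voom and with upper-quartile scaling, -0.01 with surrogate variables, with the ages fitted alone, with no filter and with thinned counts, and -0.02 with library size only. With limma-voom the FLOT2 difference between ages was -0.02. With surrogate variables CAVIN1 and DNM2 at 15 weeks were 0, CLTA at 15 weeks 0.01, DNM2 at 30 weeks 0.01, FLOT2 at 30 weeks 0 (as with thinned counts) and the DNM2 difference 0.02. CLTC in controls from 24 h to 15 weeks was 0.02 with upper-quartile scaling. Library size only, which moved the median of all genes by 0.22 at 30 weeks, by 0.21 in the difference and by -0.37 in controls from 15 to 30 weeks, gave DNM2 0 at 24 h. At 30 weeks it gave CAV1 0.04, CLTA 0.08, DNM2 0.20, FLOT1 0.12 and FLOT2 0.22. It gave differences of 0.10 for CLTA and 0.11 for DNM2, control changes from 24 h to 15 weeks of 0.04 for CLTA, 0.06 for CLTC and 0.01 for FLOT1, and DNM2 changes from 15 to 30 weeks of -0.12 in controls and -0.01 in exposed cells.

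With 1 sample left out, the 24 h change ranged from -0.11 to 0.03 for CAV1, -0.11 to 0.16 for CAV2, -0.16 to 0.02 for CAVIN1, -0.25 to 0.15 for CAVIN2, -0.20 to 0.05 for CLTB, -0.05 to 0 for CLTC, -0.01 to 0.04 for DNM2 and -0.13 to 0.12 for FLOT2. At 15 weeks it ranged from -0.04 to 0.09 for CAVIN1, -0.11 to 0.06 for CLTA, -0.02 to 0.18 for DNM2 and -0.05 to 0.02 for FLOT2. At 30 weeks it ranged from -0.05 to 0.23 for CLTB, -0.15 to 0.11 for DNM2 and -0.11 to 0.16 for FLOT2. The difference between ages ranged from 0 to 0.19 for CLTC, -0.23 to 0.03 for DNM2, -0.01 to 0.09 for FLOT1 and -0.09 to 0.17 for FLOT2. In controls from 24 h to 15 weeks CAVIN1 ranged from -0.08 to 0.10 and CLTA from -0.16 to 0.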
